A study of Boehmeria nivea with 12 samples.

Results

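The unigenes described here differed between water-cultured and untreated stems of the ramie cultivar H4. They stayed nearly level in the cultivar Z2. Both hold for the 10 of 12 libraries used to choose them. They are 200 of the 66881 unigenes in the table. A unigene is a cluster of related transcripts put together without the help of a genome. With all 12 libraries as labelled, 82 of the 200 kept a log2 difference of at least 1 in H4 and under 0.4 in Z2. The 4 groups of 3 libraries each were sequenced from stems, each library from a pool of plants. H4T and Z2T were stems of Huazhu no 4 (H4) and Zhongzhu no 2 (Z2) after 10 days with the cut end in tap water, and H4CK and Z2CK were stems cut from the mother plants of the same cultivars and not kept in water. By the study's account, the T segments had been under water and bore root primordia, and the CK stems had none. The T and CK stems therefore differed in cutting, time, submersion and root primordia together, and these cannot be told apart. More primordia were counted on Z2 than on H4. The study set the cultivars against each other because they root differently. The table pairs no unigene with a gene name, so no pathway or marker list could be matched, and the stem origin of the libraries could not be checked against marker genes.

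Ramie is a bast fibre crop propagated from cuttings, which live only if the cut stem makes roots. Adventitious roots arise from tissue that is not root, when stem cells close to the vascular tissue are reprogrammed and divide to form a root primordium. Auxin promotes this step in many plants, and other hormones such as ethylene, jasmonic acid and cytokinin modify it. A cut stem standing in water also meets wounding, low oxygen and the loss of supply from the mother plant, so water culture is known to move many genes besides those of rooting.

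The unigenes were chosen by their own values, on y = log2(FPKM + 1), in 10 of the 12 libraries. The libraries labelled H4CK1 and Z2T1 were left out of the choice, because over all unigenes each resembled another group. Across the 22261 unigenes above 0 in every library, which are not independent replicates, Pearson's r of H4CK1 was 0.98 with Z2T2 and 0.98 with Z2T3, but 0.86 with H4CK2 and 0.87 with H4CK3. In the same way r of Z2T1 was 0.98 with H4CK2 and 0.97 with H4CK3, but 0.85 with Z2T2 and 0.85 with Z2T3. The deposited labels were used throughout. A unigene was taken if it was above 0 in all 12 libraries, if the mean y of H4T1 to H4T3 differed from that of H4CK2 and H4CK3 by at least 1 without overlap of single libraries, and if the mean of Z2T2 and Z2T3 differed from that of Z2CK1 to Z2CK3 by less than 0.4. These limits were met by 557 unigenes, 329 higher and 228 lower in H4T, and the 200 with the largest H4 difference were kept. Among them 103 were higher in H4T, called the rising set, and 97 were lower, called the falling set. The sizes of the differences in these 10 libraries, and the direction, were fixed by the choice and are given as a description with no test.

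**Figure D1:**
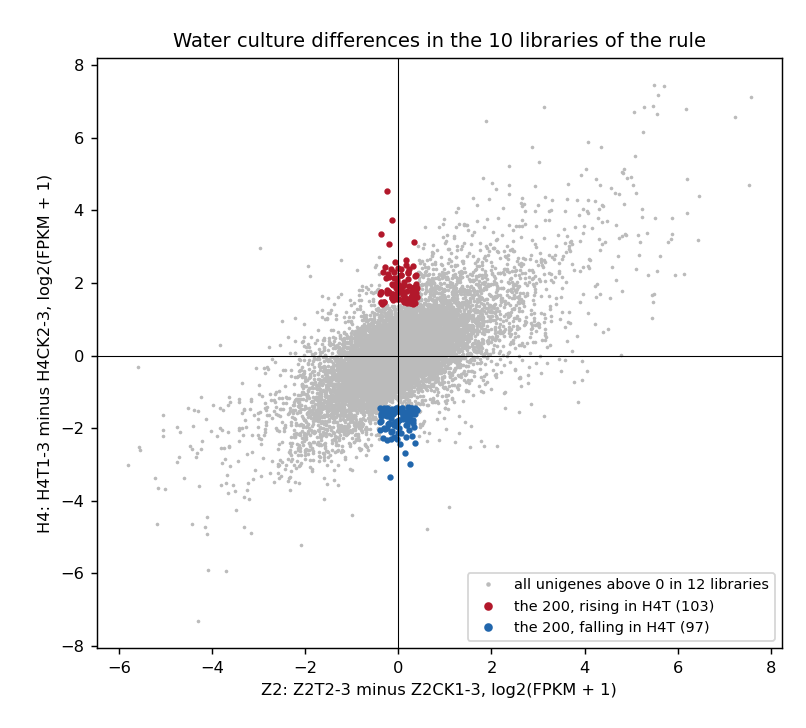
Difference with water culture in H4 (vertical axis, H4T1 to H4T3 minus H4CK2 and H4CK3) against that in Z2 (horizontal axis, Z2T2 and Z2T3 minus Z2CK1 to Z2CK3), both on log2(FPKM + 1), for 22261 unigenes above 0 in all 12 libraries (grey). The 103 rising (red) and 97 falling (blue) unigenes stand above and below the bulk inside a narrow band of the Z2 axis, as the limits of 1 and 0.4 require.

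The H4 difference of the rising set had a median of 1.78 and reached 4.54 on the log2 scale, and that of the falling set had a median of -1.71 and reached -3.35. The Z2 difference had a median of 0.09 in the rising set and -0.03 in the falling set. Over all 22261 unigenes the median differences were 0.12 in H4 and -0.01 in Z2. The last unigene taken had an H4 difference of -1.429 and the first one not taken -1.426, so the lower end is an arbitrary line through a continuous range. On the Z2 side the outermost member had a difference of -0.3998, and the nearest unigene past the limit with as large an H4 difference had one of 0.4001.

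A level Z2 was the less common case among unigenes that differed in H4. A difference of at least 1 without overlap was seen for 3145 unigenes in H4 and for 3195 in Z2, and 1580 unigenes passed in both in the same direction, against 36 in opposite directions. Of those that passed in H4, 17.7% were within 0.4 in Z2, against 56.2% of all 22261 unigenes. The same limits turned round, with Z2 past 1 and H4 within 0.4, were met by 548 unigenes, 277 higher and 271 lower in Z2T, which was 17.2% of those that passed in Z2. Both counts rest on the same 10 libraries, and no test was made of them.

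The 200 unigenes lay somewhat below the usual abundance. Their mean level over the 12 libraries had a median of 3.37 on the log2(FPKM + 1) scale, against 3.75 for the 22261. For 64 of them the lowest library lay under an FPKM of 1, and 1 had a mean under 1. The table gives no read numbers, so the reads behind a single value are unknown and no counting interval was computed. The FPKM columns summed to between 914642 in H4CK3 and 1061225 in Z2T2. Within groups these unigenes varied more than most. The median SD of 3 libraries was 0.32 in H4T and 0.94 in H4CK, and 0.78 in Z2T and 0.47 in Z2CK, against 0.18, 0.33, 0.33 and 0.23 in the same groups for the 22261 unigenes. The SDs of H4CK and Z2T include H4CK1 and Z2T1, the libraries that resembled another group.

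**Figure D2:**
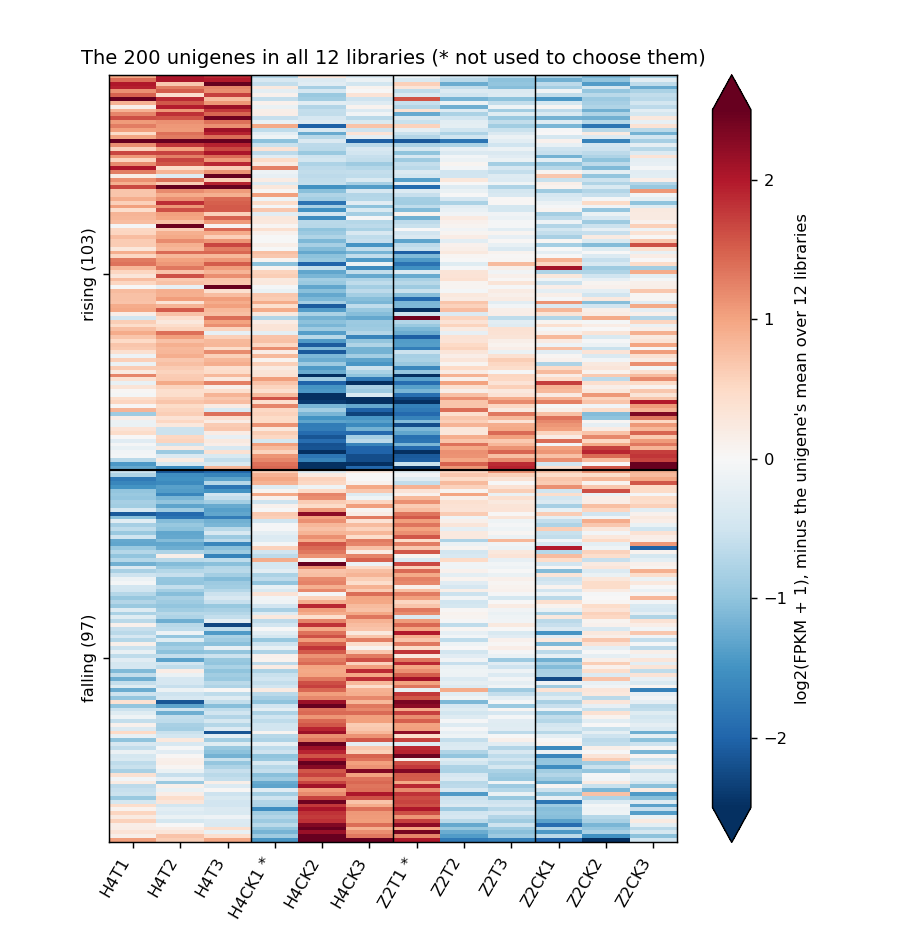
Level of each of the 200 unigenes (rows) in the 12 libraries (columns), as log2(FPKM + 1) minus the mean of the unigene, with the rising set above and the falling set below, each ordered by where its Z2 level lies between H4CK and H4T. Toward the bottom of each block H4CK2, H4CK3 and Z2T1 carry the contrast, and toward the top H4T1, H4T2 and H4T3 do; H4CK1 and Z2T1 (starred) were not used to choose.

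Summed over the rising set, the values were 4453, 5327 and 5745 FPKM in H4T1, H4T2 and H4T3, against 3635, 1142 and 1498 FPKM in H4CK1, H4CK2 and H4CK3. In Z2 the same sums were 1276, 3297 and 2992 FPKM in Z2T1, Z2T2 and Z2T3, against 3135, 2572 and 3590 FPKM in Z2CK1, Z2CK2 and Z2CK3. H4CK1 thus lay near the Z2 libraries, and Z2T1 lay with H4CK2 and H4CK3. In bulk stems, a change in the number of cells of a type and a change in RNA per cell cannot be told apart.

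Over the falling set the sums were 4144, 3006 and 3150 FPKM in H4T1, H4T2 and H4T3, against 4367, 14928 and 9539 FPKM in H4CK1, H4CK2 and H4CK3. They were 12991, 4916 and 4237 FPKM in Z2T1, Z2T2 and Z2T3, against 5017, 5520 and 4319 FPKM in Z2CK1, Z2CK2 and Z2CK3. H4CK2, H4CK3 and Z2T1 were the highest of the 12 libraries, with 1.04% to 1.58% of all FPKM, against 0.313% to 0.591% in the other 9.

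The rule did not fix the level in Z2, only that Z2T and Z2CK were alike. The Z2 level was therefore placed on a line from the mean of H4CK2 and H4CK3, set to 0, to the mean of H4T1 to H4T3, set to 1. In the rising set the median position was 0.55, with 36 of 103 unigenes above 0.75, 39 between 0.25 and 0.75 and 28 below 0.25. In the falling set the median was 0.79, with 49 of 97 above 0.75, 41 between and 7 below 0.25. For 134 of the 200 unigenes (67%) Z2 was thus nearer to H4T than to H4CK2 and H4CK3. By direction this held for 57 of the 103 rising (55.3%) and 77 of the 97 falling unigenes (79.4%). Among the other unigenes that passed the H4 limits it held for 67.1% of those higher and 67.2% of those lower in H4T. With all 12 libraries as labelled the median positions were 0.28 and 0.44, nearer to H4CK. Among the other 2945 unigenes that passed the H4 limits, whose Z2 difference was free, the median position was 0.68 for those higher and 0.65 for those lower in H4T. These positions share the H4 libraries that chose the unigenes and are a description.

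**Figure D3:**
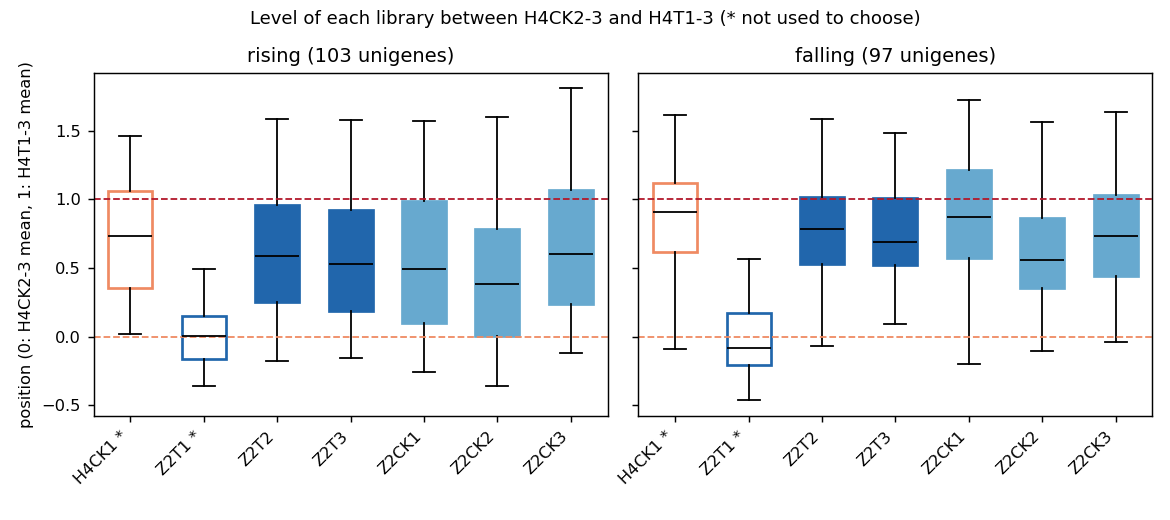
Position of 7 single libraries on the line from the H4CK2 and H4CK3 mean (0) to the H4T1 to H4T3 mean (1), for the 103 rising (left) and 97 falling (right) unigenes. Boxes give the quartiles and median and whiskers the 5th to 95th percentile over unigenes; Z2T1 had medians of 0.00 and -0.08, while H4CK1 had medians of 0.73 and 0.91.

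The libraries left out of the choice fell on opposite ends of this line. H4CK1 was nearer to the mean of H4T1 to H4T3 than to that of H4CK2 and H4CK3 for 144 of the 200 unigenes, and the other way round for 56. It was nearer to the mean of Z2T2 and Z2T3 than to H4CK2 and H4CK3 for 178 unigenes. Z2T1 was nearer to H4CK2 and H4CK3 than to Z2T2 and Z2T3 for 167. The median distance of Z2T1 was 0.30 from the H4CK2 and H4CK3 mean and 1.27 from the Z2T2 and Z2T3 mean. That of H4CK1 was 0.62 from the H4T mean, 0.31 from the Z2T2 and Z2T3 mean and 0.30 from the Z2CK mean. For the other 2945 unigenes with an H4 difference, H4CK1 was nearer to H4CK2 and H4CK3 than to H4T for 15.0%, against 28.0% for the 200. Of these 2945, H4CK1 was nearer to Z2T2 and Z2T3 than to H4CK2 and H4CK3 for 2740. For 2722 of them Z2T1 was nearer to H4CK2 and H4CK3 than to Z2T2 and Z2T3. With 1 left-out library per group no test is possible, and why these libraries stand where they do was not tested.

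The 10 libraries of the rule split the unigenes by which H4 group stood apart. In 131 of the 200, H4CK2 and H4CK3 lay outside the range of the 8 other libraries, with 61 of 103 rising unigenes below all 8 and 70 of 97 falling unigenes above all 8. Over the 22261 unigenes, 13.8% had H4CK2 and H4CK3 below and 7.19% had them above the 8. In 81 of the 200, H4T1 to H4T3 lay outside the range of the 7 others, 50 above and 31 below, where 8.05% and 4.22% of the 22261 did so. Both held for 30 unigenes and neither for 18. The H4 difference was part of the choice, so these shares are set beside the background without reading more from them.

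When H4CK2 and H4CK3 stood apart, Z2T1 mostly stood with them. Z2T1 lay beyond the 8 other libraries on the same side for 57 of 61 rising and 66 of 70 falling unigenes, and H4CK1 for 3 and 2. These were 93.9% of the 131 for Z2T1 and 3.82% for H4CK1, against 86.8% and 3.17% of the 4667 unigenes of the whole table with H4CK2 and H4CK3 apart, the 131 included.

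The rising member ranked 4th by its H4 difference shows this form. Its FPKM was 32.7, 36.5 and 38.5 in H4T, against 72.3, 3.03 and 3.32 in H4CK1, H4CK2 and H4CK3. In Z2 it was 4.04, 53.4 and 46.3 in Z2T1, Z2T2 and Z2T3, against 44.2, 35.4 and 39.2 in Z2CK. H4CK2, H4CK3 and Z2T1 did not exceed 4.04 while the other 9 libraries lay between 32.7 and 72.3, so that H4T and H4CK overlapped once H4CK1 was counted. The falling member ranked 5th mirrored it. Its FPKM was 0.31, 1.04 and 0.53 in H4T, against 0.51, 5.70 and 10.3 in H4CK1, H4CK2 and H4CK3, and 10.3, 0.33 and 0.33 in Z2T1, Z2T2 and Z2T3, against 0.25, 0.17 and 0.49 in Z2CK.

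A smaller number set H4T apart from everything else. The 3 H4T libraries lay above all 9 others, H4CK1 and Z2T1 included, for 44 of the 103 rising unigenes, where 6.92% of the 22261 did so. They lay below all 9 for 27 of the 97 falling unigenes, where 3.27% did so. H4T had itself been used to choose these 71. The rising member ranked 8th was one of them. Its FPKM was 7.44, 7.59 and 9.91 in H4T, against 0.69, 0.40 and 0.90 in H4CK, and 0.32, 1.07 and 1.08 in Z2T, against 0.78, 0.70 and 1.10 in Z2CK. Among the falling ones, the member ranked 4th had 2.61, 1.08 and 1.24 in H4T, against 10.3, 13.8 and 17.3 in H4CK. In Z2T it had 20.5, 5.92 and 8.31, against 5.26, 6.08 and 7.73 in Z2CK. Its H4CK2, H4CK3 and Z2T1 values also lay above those of the other libraries, so it had both forms.

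Identifiers are given for the 2 unigenes with the largest H4 difference in each direction. TRINITY_DN40528_c0_g2 led the rising set. Its FPKM was 72.7, 87.9 and 81.1 in H4T, against 2.97, 5.24 and 0.95 in H4CK, and 0.88, 1.27 and 5.70 in Z2T, against 7.67, 1.51 and 3.5 in Z2CK. All 3 H4T libraries were far above the other 9, whose highest value was 7.67, and the groups other than H4T overlapped each other. On the log2(FPKM + 1) scale it averaged 6.35 ± 0.14 in H4T and 1.86 ± 0.85 in H4CK (SD, n = 3 each), a difference of 4.48 with all labelled libraries (limma SE 0.59) and of 4.54 without H4CK1. Its Z2 groups averaged 1.61 ± 0.99 in Z2T and 2.20 ± 0.89 in Z2CK (SD, n = 3 each).

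TRINITY_DN34391_c1_g8 came second in the rising set. Its FPKM was 90.6, 163.8 and 194.8 in H4T, against 34.6, 9.24 and 10.2 in H4CK, and 6.73, 22.3 and 16.2 in Z2T, against 30.3, 21.6 and 14.1 in Z2CK. H4T again exceeded all 9 other libraries. H4CK1 was the highest of the 9, and H4CK2, H4CK3 and Z2T1 were the lowest, so its H4 difference was 3.75 without H4CK1 and 3.17 with it (limma SE 0.55). It averaged 7.17 ± 0.57 in H4T and 4.00 ± 1.00 in H4CK (SD, n = 3 each).

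TRINITY_DN40819_c2_g1 led the falling set and had both forms. Its FPKM was 2.41, 1.71 and 2.24 in H4T, against 3.90, 58.8 and 15.8 in H4CK1, H4CK2 and H4CK3. It was 30.8, 4.06 and 2.56 in Z2T1, Z2T2 and Z2T3, against 3.55, 4.90 and 3.23 in Z2CK. H4T lay below all 9 others, but by little, since Z2T3 was at 2.56. Apart from H4CK2, H4CK3 and Z2T1, all libraries lay between 1.71 and 4.90. The H4 difference was -3.35 by the rule, -2.45 with H4CK1 (limma SE 0.92), -2.44 without H4CK2 and -4.27 without H4CK3, so single untreated libraries moved it widely.

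TRINITY_DN33782_c0_g5 was the second of the falling set and the most abundant of the 4. Its FPKM was 42.2, 47.4 and 74.2 in H4T, against 290.6, 878.5 and 209.8 in H4CK, and 469.1, 288.1 and 187.4 in Z2T, against 286.3, 132.6 and 198.2 in Z2CK. H4T lay below all 9 other libraries, which ran from 132.6 to 878.5 with H4CK1 in their midst. It averaged 5.75 ± 0.42 in H4T and 8.56 ± 1.08 in H4CK (SD, n = 3 each), a difference of -2.81 (limma SE 0.53), and of -3.00 by the rule. Without H4CK2 the difference by the rule was -1.97 and without H4CK3 it was -4.03.

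**Figure D4:**
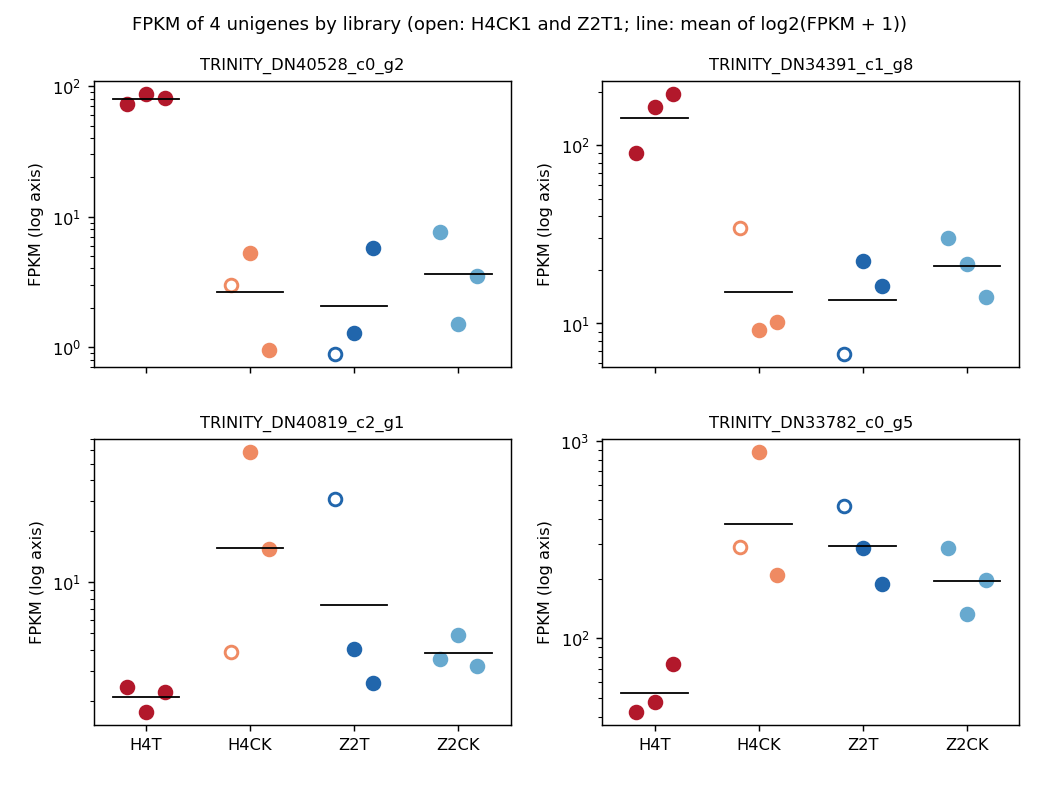
FPKM (log axis) of the 2 unigenes with the largest H4 difference in each direction, by library and group; open points are H4CK1 and Z2T1, and lines are the group means of log2(FPKM + 1), drawn back on the FPKM scale. H4T lies outside the range of the 9 other libraries in all 4, narrowly in TRINITY_DN40819_c2_g1 (H4T between 1.71 and 2.41, Z2T3 at 2.56), where H4CK2, H4CK3 and Z2T1 also stand above the rest.

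With all 12 libraries as labelled, the H4 differences became smaller and those in Z2 no longer stayed near 0. The median H4 difference was then 1.35 in the rising and -1.21 in the falling set, and 166 of the 200 unigenes kept a difference of at least 1. H4T and H4CK, with 3 libraries each, did not overlap for 104 of the 200, where 22.9% of the 22261 unigenes did not, and Z2T and Z2CK did not overlap for 11, where 23.6% did not. The median Z2 difference turned to -0.30 in the rising and 0.51 in the falling set. Z2T1 alone brought this about, since it was the only library added in Z2. In 104 unigenes the labelled Z2 difference was at least 0.4 in the direction opposite to H4, and in 8 it was at least 0.4 in the same direction. Both a labelled H4 difference of at least 1 and a Z2 difference under 0.4 were left for 82 of the 200, 52 rising and 30 falling.

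**Figure D5:**
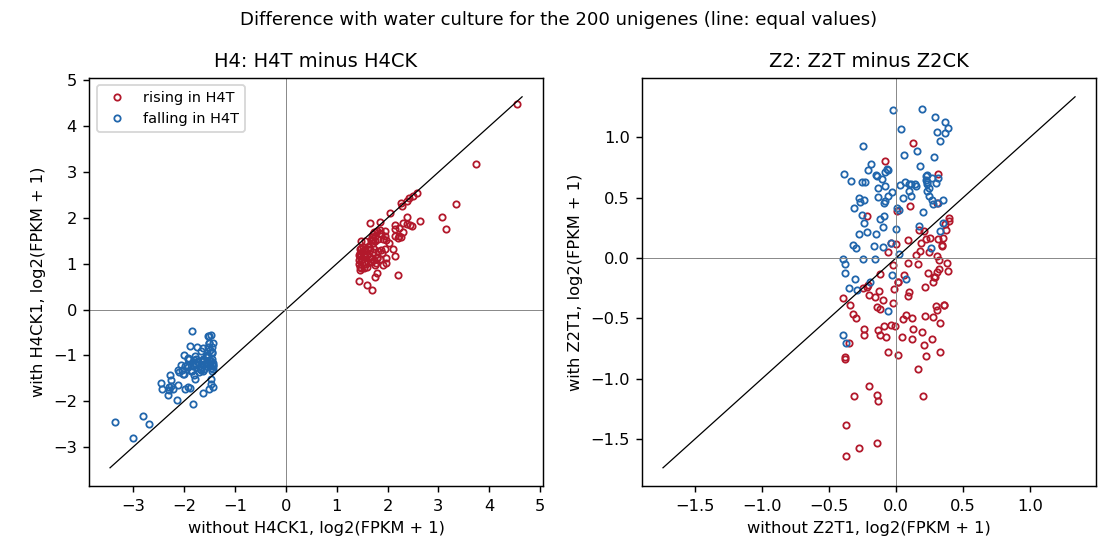
Difference with water culture on log2(FPKM + 1) for the 200 unigenes, as chosen (horizontal axes) and with the left-out library added (vertical axes), for H4 on the left and Z2 on the right. With H4CK1 the H4 differences shrink toward 0 (medians 1.35 and -1.21), and with Z2T1 the Z2 differences of the rising set (red, median -0.30) and falling set (blue, median 0.51) part in the direction opposite to H4.

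Expression differences were also fitted with limma on log2(FPKM + 1) over the 27628 unigenes that reached an FPKM of 1 in 3 or more libraries, which held 199 of the 200. Unigenes were called DEGs where the p adjusted by Benjamini-Hochberg was under 0.001 and the fold change was 2 or more on the log2 scale in either direction. With all 12 libraries 0 of the 199 were DEGs in any comparison, where the DEGs were 0.00362% of all unigenes for H4T vs. H4CK, 0.0109% for Z2T vs. Z2CK, 0% for the interaction of treatment and cultivar, 0.00724% for H4T vs. Z2T and 0.00724% for H4CK vs. Z2CK. At an unadjusted p under 0.05 limma gave 112, 1, 95, 78 and 23 of the 199 in this order, where 13.5%, 18.4%, 10.2%, 13.2% and 14.9% of all unigenes were. The 23 for H4CK vs. Z2CK were 11.6%, below the share of all. Without H4CK1 and Z2T1 this turned round, with 64.5% of the members at an unadjusted limma p under 0.05, where 34.1% of all were. The first 3 comparisons are those of the rule and the last 2 share its H4 libraries, so none of these counts is independent evidence. Over all unigenes tested, the standard error of the fold change had a median of 0.35 on the log2 scale, and of 0.49 for the interaction.

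Without H4CK1 and Z2T1, limma tested 26261 unigenes, 197 of the 200 among them. Between untreated stems, H4CK vs. Z2CK, 8 of the 197 were DEGs (2 higher and 6 lower in H4CK), where 1.93% of all unigenes were. Between water-cultured stems, H4T vs. Z2T, 3 were DEGs, all higher in H4T, where 1.73% of all were. Within H4 there were 8, 7 higher and 1 lower in H4T, where 0.937% were, and within Z2 there were 0, where 1.28% were. At an unadjusted p under 0.05 limma gave 3 within Z2 (1.52%), where 34.4% of all were. These are the 10 libraries and the differences by which the unigenes were chosen, so the counts within H4, within Z2 and for the interaction were set by the choice and are no test. Those for H4CK vs. Z2CK and H4T vs. Z2T share the H4 libraries of the choice and are no independent evidence either. The interaction gave 0 DEGs by limma here too (0% of all), with 162 of the 197 (82.2%) at an unadjusted p under 0.05, where 17.8% of all were. In this fit the median fold changes of the rising set were 0.73 for H4T vs. Z2T and -0.97 for H4CK vs. Z2CK, and those of the falling set were -0.46 and 1.24. The untreated stems thus had the larger medians, a difference that was not tested. Both comparisons use H4 libraries by which the unigenes were chosen, so the choice shaped these medians. With all labelled libraries the water-cultured stems had the larger ones, with medians of 1.07 for H4T vs. Z2T and -0.46 for H4CK vs. Z2CK in the rising set, and -0.93 and 0.83 in the falling set.

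The most abundant members were also examined by library. In the rising set the highest mean FPKM belonged to a unigene with 479.0, 475.9 and 408.8 in H4T, against 357.3, 113.4 and 209.7 in H4CK, and 98.9, 432.3 and 413.3 in Z2T, against 434.0, 378.7 and 294.9 in Z2CK. Z2T2, Z2T3 and 1 Z2CK library lay inside the range of H4T. In the falling set the highest was a unigene with 423.8, 292.4 and 327.9 in H4T, against 422.8, 1713 and 927.2 in H4CK, and 1068, 548.0 and 469.3 in Z2T, against 470.5, 632.8 and 538.0 in Z2CK. Its H4CK1 value lay inside the range of H4T.

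The identifiers place the 200 unigenes in 196 Trinity components, groups of contigs that shared sequence during assembly. Of these, 4 components held 2 members each, and in 3 of them both went the same way. For 130 members the table listed another unigene of the same component. Reads may then have been divided between near-identical sequences in a way the table does not show. The other 70 members were alone in their component, as were 35.5% of the 22261 unigenes. For 96 members another unigene of the component, itself a member or not, was above 0 in all 12 libraries. Counting only partners outside the 200 gave 150 pairs. The H4 difference had the same sign in 90 of the 150 pairs. The partner reached 1 in the same direction in 20 and in the opposite direction in 12. The same shares were not computed for pairs in the whole table. The median absolute H4 difference of these partners was 0.46, against 0.37 for all 22261 unigenes.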

How the data were processed

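The deposited table, made by the authors, holds FPKM for Trinity unigenes in one column per library. The assembler settings and counter behind it are not given in the sources used here. Methods of the study describe FPKM from RSEM on reads mapped to a ramie genome, another route than these identifiers. Library read totals were not used here, and the reads behind single values are unknown. Columns were assigned to libraries by label. FPKM values were used without further scaling, as log2(FPKM + 1), a scale that understates changes of low values. The 200 unigenes were read as 200 in all, described by direction. Identifiers were printed for the 2 unigenes with the largest H4 difference in each direction. Members and lists were chosen with earlier results of these data known. The R package limma 3.58.1 (R 4.3.3) was fitted to all 4 groups together with a variance trend, in place of the count test of the study. The fit was tested on simulated data. Other steps used Python 3.11.15, numpy 2.4.6, pandas 2.3.3 and matplotlib 3.10.9. The alternatives were other pseudocounts, filters, scalings, limits and thresholds, a replicate block and libraries left out. Each replicate pooled plants, per the methods.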

Additional observations from a re-analysis of the deposited data

How the results depend on the processing

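The limits were met by 329 rising and 228 falling unigenes, and membership of the 200 depended on several choices. With a pseudocount of 0.1, 131 of the 200 were chosen again, and 80 after quantile normalization, which moved the median difference of all unigenes by -0.16 in H4 and -0.39 in Z2. Median-of-ratios scaling moved that median by -0.12 in H4 and gave 227 rising and 331 falling within the limits. Which direction had more unigenes thus depended on the scaling. The TPM scale moved the median by -0.11 in Z2. Requiring an FPKM of 1 in 3 or more libraries, which admits zeros, gave 502 rising and 369 falling within the limits and shared 97 members. A Z2 limit of 0.2 gave 165 and 104 and shared 94. Choosing with all 12 libraries as labelled gave 175 and 97 and shared 62. Taking 200 in each direction kept all 200. Leaving out 1 of the 10 libraries gave 268 to 542 rising and 190 to 368 falling and shared 123 to 176. The highest counts came without H4CK3, and the fewest shared without Z2CK1 (132) or Z2CK2 (123). The cause was not tested; leaving out an H4 library also eases the rule on overlap.

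The median Z2 position (0.55 rising, 0.79 falling) was 0.38 in the rising set after quantile normalization and 0.28 and 0.44 with all 12 libraries as labelled, which places Z2 nearer to H4CK. Leaving out single libraries gave 0.52 to 0.60 and 0.69 to 0.80. Members without overlap in Z2 numbered 20, against 11, after quantile normalization, which moved the median Z2 difference of all unigenes by -0.39. The share of all unigenes without overlap was not computed on that scale, so nothing is read from this count. The counts for H4CK1 and Z2T1 stayed within 1.5 times under the pseudocount and the 3 scalings tried.

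DEGs among the members (0 in all 5 comparisons by limma) were 8 for H4T vs. H4CK, 1 for the interaction and 9 for H4T vs. Z2T at an adjusted p threshold of 0.05, where 0.235%, 0.0543% and 0.21% of all unigenes were. Without H4CK1 and Z2T1 they were 8 for H4T vs. H4CK, 3 for H4T vs. Z2T and 8 for H4CK vs. Z2CK, and, with the threshold of 0.05 as well, a setting added after the data were seen, 43, 15 and 36, with 10 for the interaction (of all unigenes 4.25%, 4%, 4.21% and 0.339%). Leaving out single libraries gave 0 in each. The replicate number as a block also gave 0 in all 5 comparisons, with 97 members (48.7%) at an unadjusted p under 0.05 for H4T vs. H4CK, where 10.2% of all were. The deviations of same-numbered libraries had r of -0.07 to -0.04 in H4 and -0.22 to 0.17 in Z2, so no pairing by number was seen. With 3 libraries per group, H4CK1 and Z2T1 among them, these values cannot exclude one. The 4 named unigenes kept their direction under all alternatives run.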
